A study of Mus musculus with 12 samples.

Results

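The 38 genes described here encode proteins of the synaptic vesicle and of the machinery that docks, primes, fuses and retrieves it. They were taken by symbol from the platform's annotation, and each was represented by the probe set with the highest mean over the 12 arrays, out of 100 probe sets that the annotation gives to these genes alone. All 38 were measured, among 18193 genes with a probe set. The arrays, Affymetrix 3' expression arrays, compared untreated mice 2 months old, either wild type or Gdap1-/-, in which exon 5 of Gdap1 is deleted. Its product sits in the outer membrane of mitochondria, and inherited mutations of the human gene cause Charcot-Marie-Tooth disease. From each genotype, 3 lysates of whole sciatic nerve and 3 preparations of motoneurons isolated by laser dissection were hybridised, each labelled a biological replicate. The design text mentions RNA of 5 mice, and whether this number is per group was not given. The samples with enough RNA of good quality were used. Which nerve and motoneuron samples share a mouse was not given in the sources used here. P-values measure the spread between these samples, and the number of arrays limits the precision.

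At a nerve terminal, neurotransmitter-filled vesicles are tethered at the active zone, primed by Unc13 proteins, and fused with the plasma membrane by a SNARE complex of Vamp on the vesicle and syntaxin and Snap25 on the membrane, with synaptotagmins as calcium sensors and complexins as regulators of the complex. Nsf and its adaptors then take the SNARE complex apart, and clathrin adaptors, dynamin and synaptojanin retrieve the membrane. Motoneurons make these transcripts in the cell body in the spinal cord and send the proteins down the axon, whereas a lysate of sciatic nerve holds the axons without those cell bodies, together with Schwann cells, fibroblasts, vessels and immune cells. Transcripts of some relatives, such as Vamp and syntaxin genes, also serve secretion in cells other than neurons.

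Deposited values are log2 expression values. The arrays of each tissue had been brought to a common scale separately, with array medians of 8.29 to 8.40 in nerve and 6.53 to 6.59 in motoneurons, so each difference between tissues is given as deposited and, where it matters, after centring every array on its median or quantile normalizing all 12 together. Tissue and RNA extraction kit cannot be told apart. Of 8 motoneuron markers, 7 were higher in wild type motoneurons than in nerve, among them Slc18a3, the vesicular acetylcholine transporter, at 12.21 against 5.67. The probe set of Chat, the enzyme that makes acetylcholine, read 4.83 against 5.12, below the median of its arrays in both tissues. Markers of spinal interneurons were also present in the motoneuron preparations, with all 7 measured genes higher than in nerve. Their mean level was 10.71 to 11.56, beside 10.51 to 10.93 for the motoneuron list. The Chat probe set lowers the mean of the motoneuron list. That of the interneuron marker Lhx1, at 7.16 in wild type motoneurons, lowers the interneuron mean. The astrocyte list read 9.95 to 10.54 in the motoneuron preparations and 9.82 to 10.60 in nerve. Of its 7 markers, 3 were higher and 4 lower in wild type motoneurons, as deposited. The oligodendrocyte list read 11.23 to 12.08 in the motoneuron preparations and 7.90 to 8.36 in nerve, with 5 of 6 markers higher in wild type motoneurons. Fibroblast, endothelial and Schwann cell lists were higher in nerve in every array, at 10.90 to 14.43 against 5.84 to 8.03. Xist, the transcript of the inactive X chromosome, was high in nerve arrays of wild type replicate 2 and knockout replicate 3. It was also high in all motoneuron arrays except knockout replicate 2. Sex was thus uneven between the tissues and, in motoneurons, between the genotypes. The part of sex in the tissue differences was not tested. By Xist, nerve and motoneuron samples of the same number differed in sex for wild type replicates 1 and 3 and knockout replicate 1.

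In wild type mice, 30 of the 38 genes were higher in motoneurons than in nerve, 5 were lower, and Synpr, Bsn and Cplx2 did not pass the threshold (limma, adjusted p under 0.05). Their median log2 difference was 3.29, whereas that of all genes was -0.90. Among all genes 17.7% passed as higher and 63.7% as lower. In knockout mice 30 passed as higher and 4 as lower. The median was then 3.16, beside -0.86 for all genes, of which 18.9% were higher and 64.1% lower. The 30 higher and 4 lower genes were called in both genotypes, and each of the 30 was also called higher with either other scaling, in both genotypes. Only Stx1a and Unc13b were called lower in all 3 scalings. After centring, 35 genes were higher and 2 lower in wild type (median 5.05, where all genes had 0.86 and 61.2% passed as higher and 20% as lower). After quantile normalization 34 were higher and 3 lower (median 4.20, where all genes had 0.23 and 43.1% passed as higher and 30.6% as lower). The share of neuronal RNA in a sample and the amount of these transcripts per neuron cannot be told apart in such samples. The part of spinal interneuron, astrocyte and oligodendrocyte RNA in the motoneuron values was not tested.

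**Figure D1:**
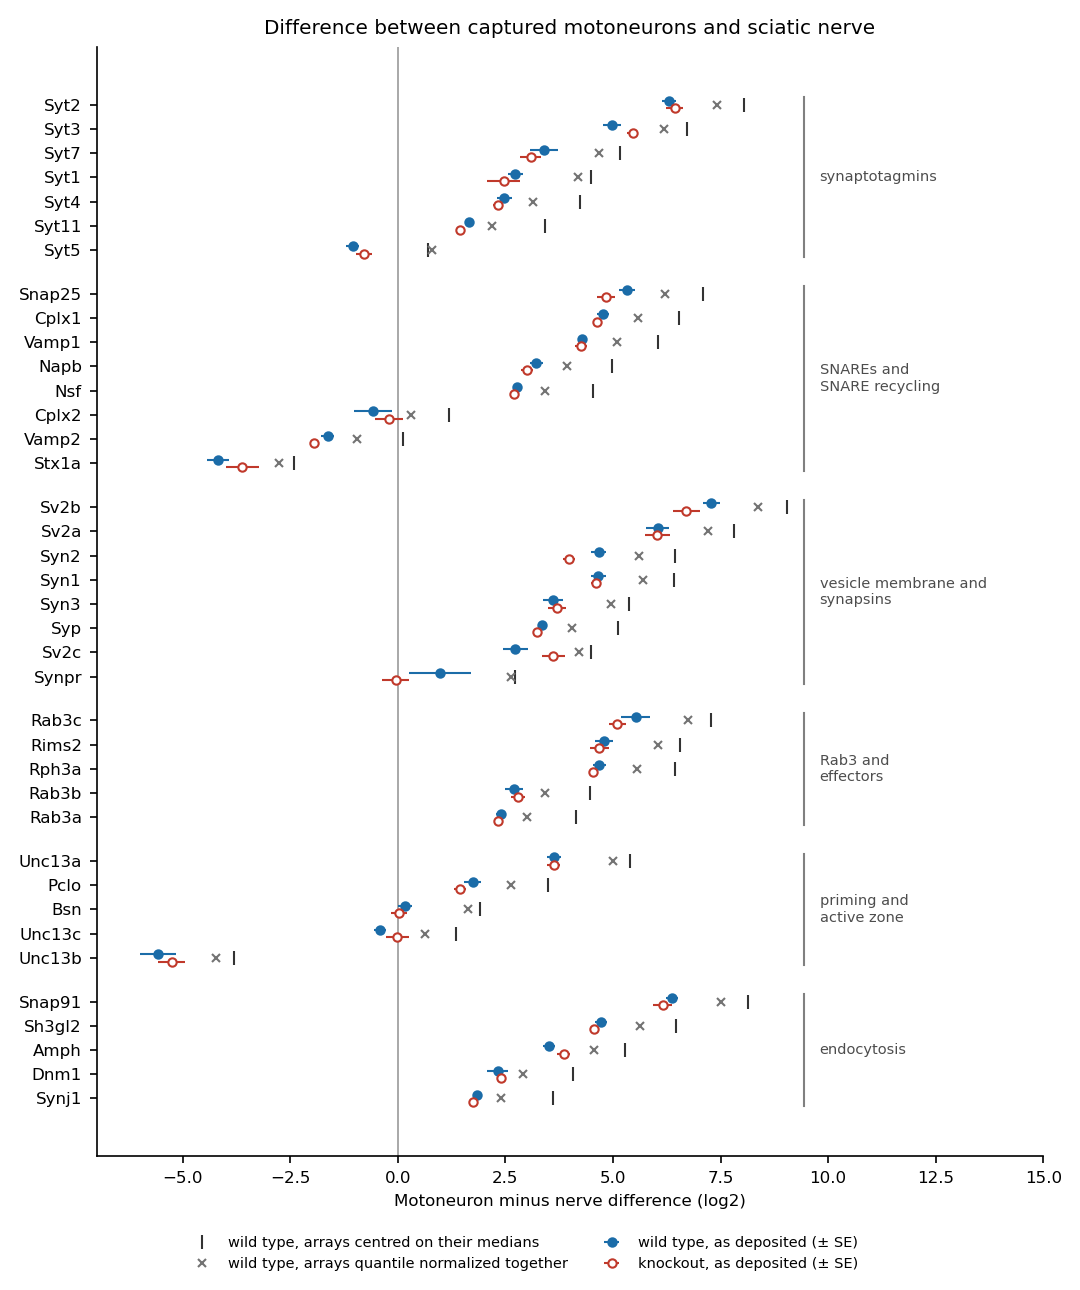
Motoneuron minus nerve difference (log2, horizontal axis) of each of the 38 genes, grouped by role. Filled points are wild type and open points knockout, as deposited, with bars of 1 SE from limma (n = 3 arrays per group), and the bars and crosses without error are the wild type values after centring and after quantile normalization. The 30 genes called higher in both genotypes lie to the right of 0, with Sv2b farthest, while all points of Stx1a and Unc13b lie to the left.

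Among the synaptotagmins, 6 of 7 were higher in motoneurons. Syt2, the fast calcium sensor of brainstem and spinal synapses and of the neuromuscular junction, read 7.73, 7.30 and 7.77 in wild type nerve and 13.84, 13.96 and 13.88 in wild type motoneurons. The knockout arrays read 7.94, 7.05 and 7.65 in nerve and 13.95, 14.01 and 13.98 in motoneurons. The tissues were far apart in every array, and the wild type difference was 6.29 (SE 0.16, adjusted p = 7.83e-08 by limma). Syt3 read 7.13, 7.73 and 7.33 in wild type nerve and 12.33, 12.16 and 12.61 in wild type motoneurons, a difference of 4.97 (SE 0.21, adjusted p = 3.62e-07 by limma). Its knockout arrays read 7.40, 7.55 and 7.66 in nerve and 12.96, 13.04 and 12.98 in motoneurons. Syt7, a slower sensor with high calcium affinity, differed by 3.40, Syt1, the fast sensor of forebrain synapses, by 2.73, Syt4 by 2.48 and Syt11 by 1.66. Syt4 and Syt11 are forms that lack calcium binding in part of the protein. Syt5 ran the other way in the deposited values. It read 7.50, 7.52 and 7.62 in wild type nerve and 6.57, 6.47 and 6.45 in wild type motoneurons, and 7.39, 7.48 and 7.48 against 6.54, 6.76 and 6.68 in knockout. Its wild type difference of -1.05 (SE 0.16, adjusted p = 0.000386 by limma) turned to 0.71 after centring and 0.79 after quantile normalization, so its direction depends on the scaling.

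The genes of SNAREs and their recycling divided. Snap25, the plasma membrane SNARE of neurons, read 9.65, 9.04 and 9.77 in wild type nerve and 14.84, 14.81 and 14.78 in wild type motoneurons, a difference of 5.32 (SE 0.18, adjusted p = 1.71e-07 by limma). In knockout it read 10.40, 9.41 and 9.78 in nerve and 14.71, 14.75 and 14.67 in motoneurons, so the tissues did not overlap in either genotype. Cplx1, a complexin, was higher in wild type motoneurons by 4.77, Vamp1, the vesicle SNARE of spinal and neuromuscular synapses, by 4.29, Napb, the neuronal adaptor of Nsf, by 3.22 and Nsf itself, the ATPase that separates SNARE complexes, by 2.78. Vamp2, the vesicle SNARE of forebrain synapses, read 12.72, 12.39 and 12.87 in wild type nerve and 11.11, 10.88 and 11.10 in motoneurons. Its knockout values were 12.75, 12.71 and 12.93 against 10.90, 10.71 and 10.96. Every nerve array of Vamp2 lay above every motoneuron array, and the wild type difference was -1.63 (SE 0.15, adjusted p = 1.93e-05 by limma), with -0.95 after quantile normalization and 0.13 after centring, where it did not pass. Stx1a, the plasma membrane syntaxin, showed the opposite of Snap25 by its probe set. It read 10.13, 10.89 and 10.44 in wild type nerve and 6.23, 6.61 and 6.08 in wild type motoneurons, and 10.55, 10.50 and 10.43 against 6.35, 7.91 and 6.39 in knockout. The wild type difference was -4.18 (SE 0.25, adjusted p = 1.91e-06 by limma), and it was -2.42 after centring and -2.75 after quantile normalization. Cplx2, the other complexin here, read 10.58, 11.43 and 10.88 in wild type nerve and 11.13, 10.64 and 9.39 in wild type motoneurons. In knockout it read 11.41, 10.75 and 11.42 in nerve and 11.23, 10.20 and 11.53 in motoneurons, so the tissues overlapped. Its wild type difference was -0.58 (SE 0.43, adjusted p = 0.245 by limma), with 1.18 after centring and 0.31 after quantile normalization. The lowest Cplx2 value in each genotype fell on the motoneuron array where the interneuron list was also lowest, wild type replicate 3 at 10.71 and knockout replicate 2 at 10.78, and the part of interneuron RNA in these values was not tested.

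Of 8 genes of the vesicle membrane and the synapsins, 7 were higher in motoneurons. The largest difference of all 38 genes belonged to Sv2b, one of the glycoproteins of the vesicle membrane, which read 5.78, 6.43 and 6.21 in wild type nerve and 13.32, 13.58 and 13.38 in wild type motoneurons. Its knockout arrays read 6.15, 5.73 and 7.14 in nerve and 13.06, 13.06 and 13.02 in motoneurons. The difference was 7.29 in wild type (SE 0.20, adjusted p = 9.26e-08 by limma). Sv2a, a relative of Sv2b and the target of the drug levetiracetam, read 5.76, 6.78 and 6.23 in wild type nerve and 12.47, 12.23 and 12.18 in wild type motoneurons. In knockout it read 6.80, 6.25 and 5.99 in nerve and 12.59, 11.79 and 12.76 in motoneurons, and the wild type difference was 6.04 (SE 0.27, adjusted p = 4.38e-07 by limma). Both genes were thus high in every motoneuron array and low in every nerve array. Sv2c differed by 2.73. The synapsins Syn1, Syn2 and Syn3, which tie vesicles to actin and to one another, differed by 4.66, 4.67 and 3.61, and synaptophysin, Syp, by 3.36. Synpr, synaptoporin, did not pass: it read 6.04, 5.59 and 6.76 in wild type nerve and 7.63, 8.34 and 5.34 in wild type motoneurons, a difference of 0.97 (SE 0.72, adjusted p = 0.236 by limma).

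All 5 genes of the Rab3 group were higher in motoneurons. Rab3 proteins are vesicle GTPases, and rabphilin (Rph3a) and Rims2 bind them. Rab3c read 6.25, 6.26 and 6.32 in wild type nerve and 12.27, 12.19 and 10.96 in wild type motoneurons, a difference of 5.53 (SE 0.34, adjusted p = 2.28e-06 by limma). Its knockout arrays read 6.50, 5.82 and 6.01 in nerve and 11.27, 11.17 and 11.21 in motoneurons. Rims2, a scaffold of the active zone, read 6.21, 6.42 and 6.87 in wild type nerve and 11.37, 11.29 and 11.22 in wild type motoneurons, and 6.03, 6.51 and 6.62 against 11.22, 10.76 and 11.21 in knockout. The wild type difference of Rims2 was 4.79 (SE 0.21, adjusted p = 4.23e-07 by limma). Rph3a, Rab3b and Rab3a differed by 4.68, 2.70 and 2.39. Rab3a, the main Rab3 form of brain synapses, had the smallest difference of the group and was already at 12.08 ± 0.15 (SD, n = 3) in wild type nerve.

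The priming and active zone genes went in both directions, and the most negative difference of the 38 genes, that of Unc13b, was among them. Unc13a, which encodes the priming factor Munc13-1, was higher in motoneurons, at 6.71, 6.76 and 6.86 in wild type nerve and 10.51, 10.34 and 10.39 in wild type motoneurons. Unc13b, which encodes Munc13-2, was lower, at 11.04, 11.45 and 11.26 in wild type nerve and 6.24, 4.66 and 6.14 in wild type motoneurons. In knockout Unc13b read 11.27, 10.93 and 11.16 in nerve and 6.07, 6.42 and 5.11 in motoneurons. No array of one tissue reached the range of the other for either gene, and the wild type differences were 3.64 (SE 0.16, adjusted p = 4.57e-07 by limma) for Unc13a and -5.57 (SE 0.41, adjusted p = 5.73e-06 by limma) for Unc13b. Unc13b stayed at -3.81 after centring and -4.22 after quantile normalization. Unc13c, the third Munc13 gene, read 10.19, 10.08 and 10.16 in wild type nerve and 9.77, 9.78 and 9.66 in wild type motoneurons, against 9.70, 9.58 and 10.28 and 10.23, 9.31 and 10.01 in knockout. Its tissues overlapped in knockout, and its wild type difference of -0.41 (SE 0.14, adjusted p = 0.0269 by limma) turned to 1.35 after centring and 0.63 after quantile normalization. Of the large active zone scaffolds, Pclo differed by 1.74 and Bsn by 0.16, the latter without passing (adjusted p = 0.391 by limma).

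All 5 endocytosis genes were higher in motoneurons. Snap91, which encodes the clathrin adaptor AP180, read 7.28, 7.42 and 7.39 in wild type nerve and 13.70, 13.88 and 13.61 in wild type motoneurons, a difference of 6.37 (SE 0.14, adjusted p = 6.06e-08 by limma). Its knockout arrays read 7.56, 6.80 and 7.70 in nerve and 13.52, 13.50 and 13.49 in motoneurons, again far apart. Sh3gl2, endophilin A1, differed by 4.72, Amph, amphiphysin, by 3.51, Dnm1, the dynamin of nerve terminals, by 2.32, and Synj1, the lipid phosphatase that sheds the clathrin coat, by 1.85.

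Start-site sequences from RefSeq (GRCm38.p6) are shown for 4 genes, because Unc13a and Unc13b are the relatives that differed most between the tissues, and because Syn1, Unc13a and Sh3gl2 held motifs that few promoters hold. Each line is 300 bases on the gene's strand, 250 before the annotated start and 50 from it on, and capitals mark the motifs found, on either strand.
Syn1, chrX:20920869-20921168, minus strand: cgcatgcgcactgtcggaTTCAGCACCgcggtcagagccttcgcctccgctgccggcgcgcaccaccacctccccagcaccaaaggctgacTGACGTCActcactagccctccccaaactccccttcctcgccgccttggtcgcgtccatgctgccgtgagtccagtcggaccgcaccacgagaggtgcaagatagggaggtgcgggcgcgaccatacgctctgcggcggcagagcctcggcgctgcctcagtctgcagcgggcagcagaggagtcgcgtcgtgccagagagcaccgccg
Unc13a, chr8:71671708-71672007, minus strand: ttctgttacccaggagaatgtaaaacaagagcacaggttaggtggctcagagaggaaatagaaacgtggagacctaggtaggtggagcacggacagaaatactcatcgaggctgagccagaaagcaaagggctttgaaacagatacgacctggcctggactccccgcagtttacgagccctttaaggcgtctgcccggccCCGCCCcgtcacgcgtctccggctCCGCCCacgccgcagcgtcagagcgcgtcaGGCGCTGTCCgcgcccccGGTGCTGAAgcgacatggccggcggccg
Unc13b, chr4:43058703-43059002, plus strand: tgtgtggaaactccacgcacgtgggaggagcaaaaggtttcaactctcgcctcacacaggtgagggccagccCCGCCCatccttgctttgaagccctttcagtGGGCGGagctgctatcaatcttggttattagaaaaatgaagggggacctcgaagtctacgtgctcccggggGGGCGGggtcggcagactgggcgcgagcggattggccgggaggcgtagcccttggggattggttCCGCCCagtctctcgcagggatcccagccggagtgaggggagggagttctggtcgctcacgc
Sh3gl2, chr4:85205206-85205505, plus strand: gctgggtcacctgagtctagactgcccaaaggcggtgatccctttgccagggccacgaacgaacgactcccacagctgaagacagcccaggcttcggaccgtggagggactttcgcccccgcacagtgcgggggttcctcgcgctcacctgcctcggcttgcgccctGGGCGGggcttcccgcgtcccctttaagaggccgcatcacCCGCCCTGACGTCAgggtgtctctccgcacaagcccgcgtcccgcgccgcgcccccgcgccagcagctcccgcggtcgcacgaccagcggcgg
The motifs searched on both strands were TTCAGCACC (the left part of RE1, the element bound by the repressor REST), the right part of RE1, TGACGTCA (the cyclic AMP response element) and GGGCGG (the GC box). The table held windows for 31 of the 38 genes and none for Syt7, Syt5, Vamp2, Syn3, Syt4, Rims2 and Snap25. TTCAGCACC occurred in 2 of the 31, Syn1 and Unc13a, and in 0.371% of all 32851 windows. In Syn1 it began 232 bases before the start. In Unc13a both RE1 parts lay after the start, on the opposite strand, 8 bases apart. An exact copy of the right part was in no other of these genes and in 0.137% of all windows. Only exact letters were searched, so parts with other letters would be missed. Whether the letters after the left part in Syn1 form a variant right part was not tested. TGACGTCA occurred in Syn1, 159 bases before the start, in Sh3gl2, 37 bases before it, and in 1.79% of all windows. The Unc13b window held 4 GC boxes and no exact copy of either RE1 part. The GC box was found in 24 of the 31 genes (77.4%), beside 38.2% of all genes in the table, and the windows of these genes were richer in G and C, with a median of 61.3% against 52.7% for all windows. A match describes letters in a window and does not show that a factor binds there.

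The difference between a pair of relatives within each array does not depend on how the tissues were scaled by a constant, so it was compared between tissues as a description. Unc13a stood higher relative to Unc13b in motoneurons than in nerve by 9.21 (SE 0.48) in wild type and 8.88 (SE 0.37) in knockout. Vamp1 gained on Vamp2 by 5.92 (SE 0.19) and 6.20 (SE 0.24), Syt3 on Syt5 by 6.02 (SE 0.23) and 6.25 (SE 0.069), and Cplx1 on Cplx2 by 5.35 (SE 0.62) and 4.84 (SE 0.44), in wild type and knockout. Syt2 stood higher relative to Syt1 by 3.56 (SE 0.15) and 3.97 (SE 0.51), by the probe sets used. Over all their probe sets, wild type tissue differences were 6.29, 1.82 and 3.54 for Syt2 and 2.73, 1.18, 0.020 and 3.16 for Syt1. The order of Syt2 and Syt1 thus depends on the probe sets compared. In each of these pairs the arrays of the tissues did not overlap in either genotype. Relatives with like differences were Syn1 and Syn2, whose tissue differences were 0.015 apart in wild type with overlapping arrays, and Rab3a and Rab3b, which were 0.30 apart in wild type, also overlapping, and 0.46 apart in knockout without overlap. In knockout, Syn1 stood higher relative to Syn2 by 0.62 (SE 0.27), without overlap. These values show that, by the probe sets used, one gene of a pair changed more than the other, and the pairs were not tested.

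**Figure D2:**
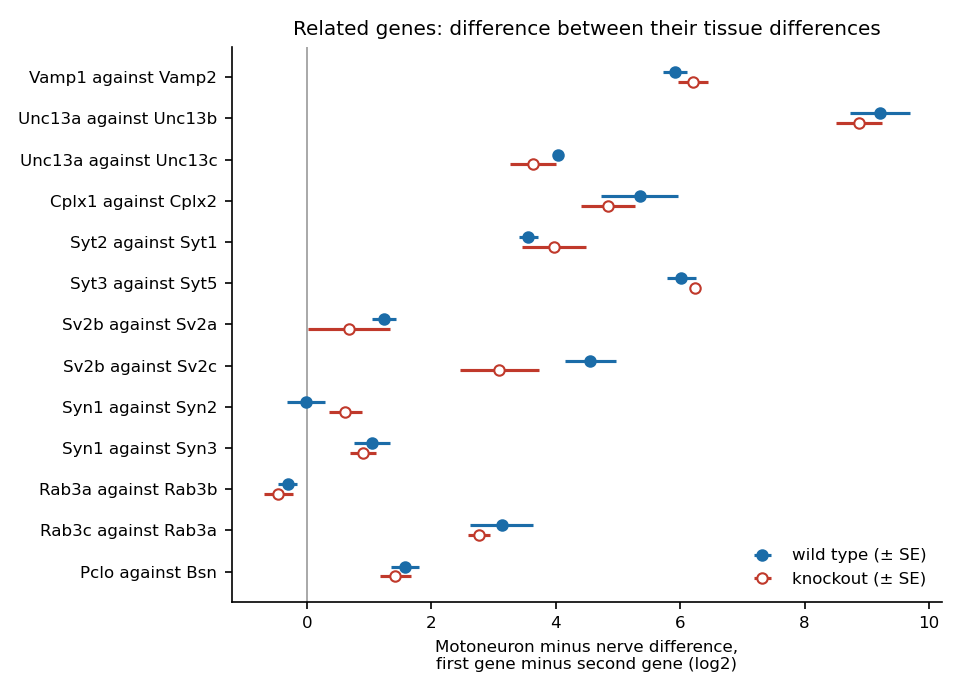
Difference between the tissue differences of related genes (log2, first gene minus second, motoneurons minus nerve), with wild type filled, knockout open and bars of 1 SE (n = 3 arrays per group). Unc13a against Unc13b is farthest from 0, at 9.21 and 8.88, and Syn1 against Syn2 in wild type and Rab3a against Rab3b lie nearest to it.

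Several genes had probe sets that did not move together. Over all 100 probe sets, 75 were higher in wild type motoneurons, 16 lower and 9 not called, beside 14.3% higher and 67.9% lower among all probe sets of the arrays. Of 29 genes with more than 1 probe set, 5 had called probe sets in both directions, Bsn, Napb, Nsf, Rims2 and Syt7. Bsn, given as not called above, differed by 0.16, 3.39 and -1.18 over its probe sets, in falling order of their mean level. Nsf differed by 2.78 and 3.04 by its brighter probe sets and by -4.18 and -1.66 by the dimmer ones. The 3 probe sets of Pclo gave 1.74, 7.30 and 5.05. For the genes that were lower in motoneurons, Unc13b gave -5.57 and -2.06, Stx1a -4.18 and -2.90, and Vamp2 -1.63 and -0.68, so each kept its direction in every probe set as deposited. Which transcripts each probe set reads was not analysed here.

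**Figure D3:**
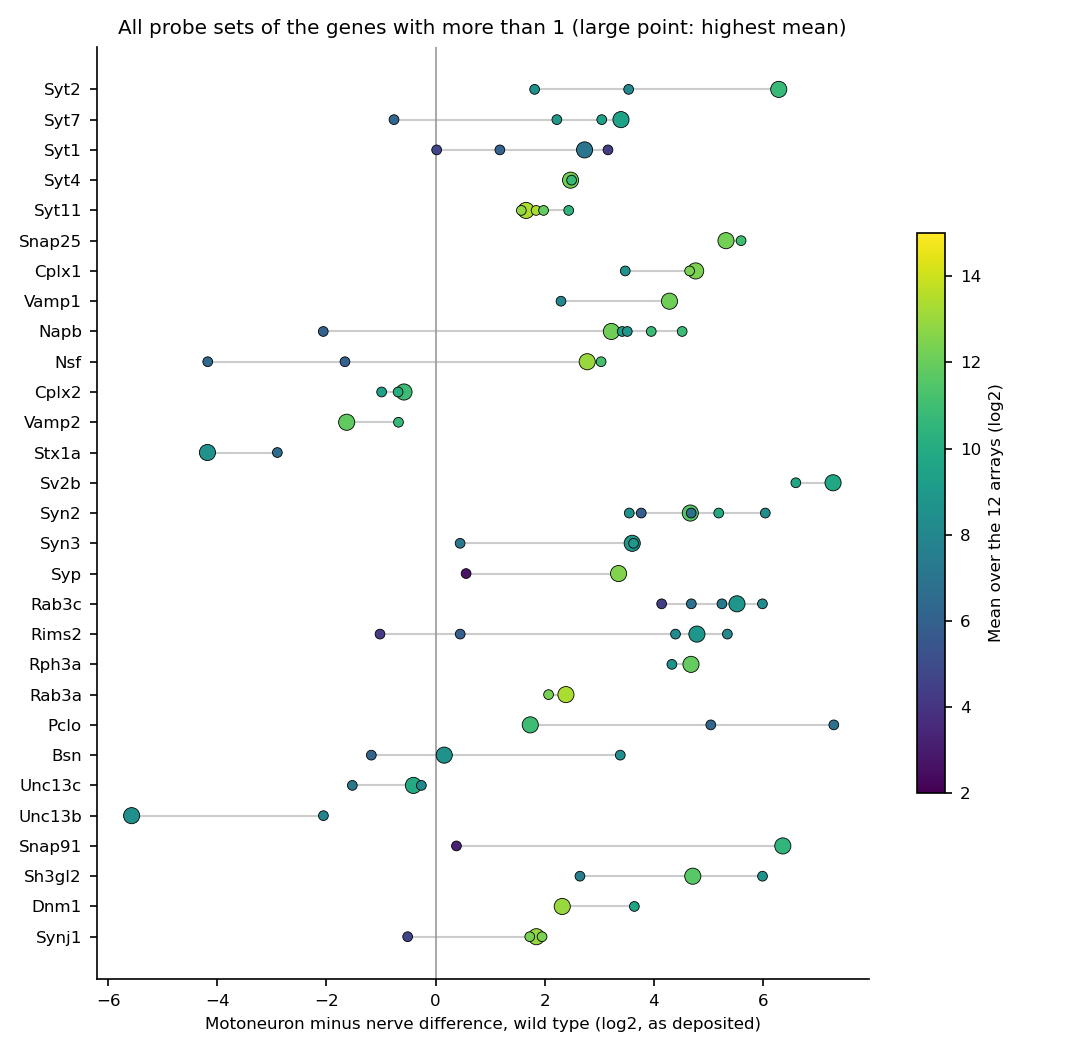
Motoneuron minus nerve difference in wild type (log2, as deposited) of every probe set of the 29 genes with more than 1, coloured by its mean over the 12 arrays. The large point is the probe set used for the gene. Bsn, Napb, Nsf, Rims2 and Syt7 have called probe sets on both sides of 0, and Synj1 has 1 to the left, at -0.51, that was not called.

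Other presynaptic genes, from a list without the 38, were also found in both directions. Of 56 listed, 51 were measured, 29 of them higher and 11 lower in wild type motoneurons (median 0.64), where 17.7% of all genes were higher and 63.7% lower. After centring 43 were higher and 5 lower, beside 61.2% and 20% of all genes, and after quantile normalization 41 and 5, beside 43.1% and 30.6%. The largest differences were those of Cadps, a priming factor of dense-core vesicles, at 9.25, of Syngr3, synaptogyrin 3, at 6.80 and of Nrxn3, a neurexin, at 5.75. At the other end were Sh3gl1, the widely expressed endophilin, at -3.56, Dnm2, the widely expressed dynamin, at -2.74 and Rab3d, a Rab3 of secretory cells, at -2.48. Set beside them, the neuronal relatives Sh3gl2 and Dnm1 differed by 4.72 and 2.32. The Sh3gl1, Dnm2 and Rab3d values stayed negative with the other scalings.

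The tissue differences of the 38 genes were alike in the genotypes, which share no arrays. Across genes their Pearson correlation was 0.992 (n = 38 genes, which are not independent replicates), and 33 of 38 lay within 0.5 of each other. Neither value was computed over all genes, so they have no background here. Among the largest shifts were Sv2c, at 2.73 in wild type and 3.61 in knockout, and Syn2, at 4.67 and 3.98. Synpr was at 0.97 in wild type and -0.053 in knockout, without passing in either.

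Between genotypes in motoneurons no gene passed, of these 38 or of all genes (0% called by limma). At an unadjusted p under 0.05 there were 6 of 38, or 15.8%, beside 20.8% of all genes, and the groups did not overlap for 7, or 18.4%, beside 25.8%. Both shares lay below those of all genes, and whether they differ from this background was not tested. By probe set the share with an unadjusted p under 0.05 lay above it instead, at 23 of 100 beside 17% of all probe sets. The median knockout minus wild type difference was 0.016, with 0.019 for all genes, and 21 genes were positive and 17 negative. After centring the balance turned, with a median of -0.0093 and 16 positive and 22 negative, where all genes had -0.0060. The median was 0.098 with the probe sets of a gene averaged, and 0.0062 to 0.041 with 1 array left out. Syt3 had the smallest p. Its wild type motoneuron arrays read 12.33, 12.16 and 12.61 and its knockout arrays 12.96, 13.04 and 12.98, all of the latter above all of the former. The difference was 0.63 (SE 0.11, unadjusted p = 0.000574, adjusted p = 0.108 by limma). Sv2b differed the other way, with wild type at 13.32, 13.58 and 13.38 and knockout at 13.06, 13.06 and 13.02, a difference of -0.38 (SE 0.074, adjusted p = 0.112 by limma). Its second probe set gave -0.095. Snap91 read 13.70, 13.88 and 13.61 in wild type and 13.52, 13.50 and 13.49 in knockout, a difference of -0.23 (SE 0.070, adjusted p = 0.180 by limma). Snap25 read 14.84, 14.81 and 14.78 in wild type and 14.71, 14.75 and 14.67 in knockout, a difference of -0.10 (SE 0.035, adjusted p = 0.203 by limma), and its second probe set gave -0.29 (unadjusted p = 0.000792, adjusted p = 0.108 by limma). For Sv2b, Snap91 and Snap25 every knockout array lay below every wild type array. Syt4 read 13.33, 13.42 and 13.42 in wild type and 13.34, 13.18 and 13.17 in knockout, where 1 knockout array lay within the wild type range, and the difference was -0.16 (adjusted p = 0.266 by limma). Rab3a differed by 0.15 (adjusted p = 0.272 by limma), with wild type replicate 3 at 14.62 among the knockout values of 14.63, 14.59 and 14.65 and the other wild type arrays at 14.41 and 14.39. Its second probe set gave -0.16, the opposite direction.

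**Figure D4:**
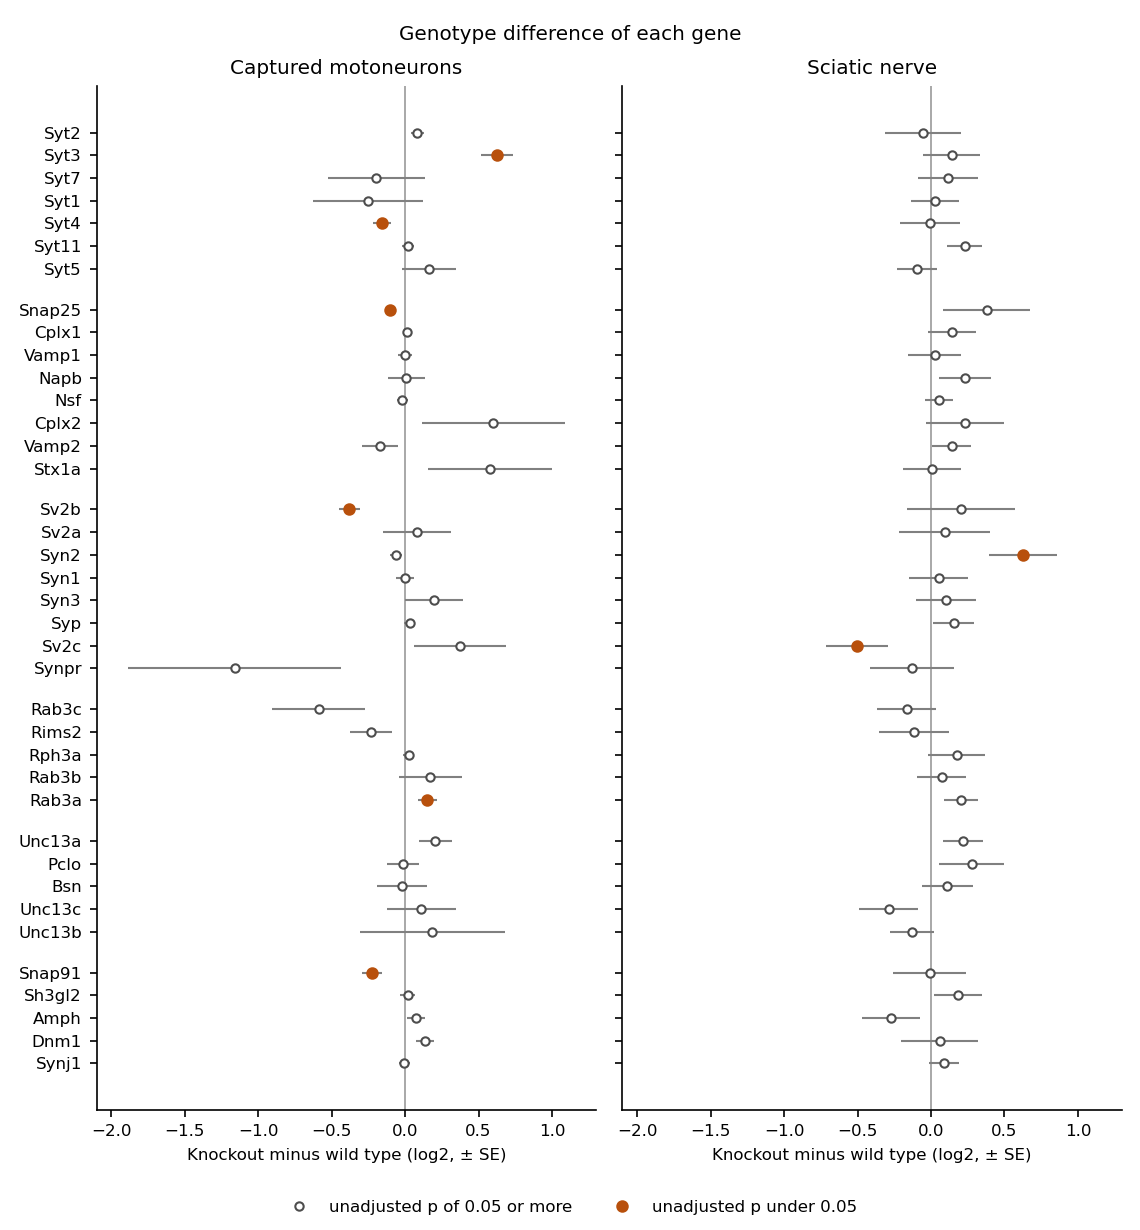
Knockout minus wild type difference (log2) of each of the 38 genes in motoneurons, left, and in sciatic nerve, right, with bars of 1 SE from limma (n = 3 arrays per group). Filled points have an unadjusted p under 0.05, 6 in motoneurons and 2 in nerve, and none passed after adjustment over all probe sets.

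By role, the motoneuron medians were 0.021 for the synaptotagmins, 0.0030 for the SNARE group, 0.016 for the vesicle membrane and synapsins, 0.024 for the Rab3 group, 0.11 for priming and active zone and 0.019 for endocytosis. No role group moved one way, with positive and negative members in each. The other genes whose arrays did not overlap were Dnm1 at 0.14 and Unc13a at 0.21, both positive, and Syn2 at -0.061. Dnm1's second probe set gave 0.69 (unadjusted p = 0.000707, adjusted p = 0.108 by limma). An unadjusted p under 0.05 was reached by 23 of the 100 probe sets, 11 higher and 12 lower in knockout, beside 17% of all probe sets. Among them the fourth of Syt11 stood at -0.46 while its brightest stood at 0.021, and the third of Syn2 stood at 0.86 while its brightest stood at -0.061.

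In motoneurons the absence of calls did not hold in every fit. Of the 38 genes, 6 passed without wild type replicate 3, among 4646 of the 45037 probe sets tested. Rab3c then fell by 1.01 in knockout (adjusted p = 0.00453 by limma), Synpr fell by 2.04 (adjusted p = 0.0226), Sv2b fell by 0.40 (adjusted p = 0.0215) and Snap91 fell by 0.28 (adjusted p = 0.0244). Syt3 rose by 0.75 (adjusted p = 0.00489) and Rab3a by 0.23 (adjusted p = 0.00808). With array weights, 4 genes passed, Syt3, Rab3a, Sv2b and Snap25, among 2929 of the 45037 probe sets. For both fits the share of all genes that passed was not computed, so these counts have no like background. For Rab3c, a vesicle GTPase, wild type read 12.27, 12.19 and 10.96 and knockout 11.27, 11.17 and 11.21, so that replicate 3 was the lowest of all 6. For Synpr, wild type read 7.63, 8.34 and 5.34 and knockout 6.05, 5.27 and 6.52, again with replicate 3 among the knockout values. With it included, Rab3c differed by -0.59 (adjusted p = 0.395 by limma) and Synpr by -1.16 (adjusted p = 0.465 by limma). The other Rab3c probe sets gave 0.26, 0.25, 0.21 and -0.60 on all 6 motoneuron arrays, so its direction depended on the probe set. Over all probe sets this array correlated, on average, at 0.989 with the knockout arrays and at 0.987 with the other wild type ones. Its 18S RNA value, 14.64, was close to the 14.66 to 14.67 of the knockout arrays, while the other wild type arrays read 13.94 and 13.77. The bacterial spike-in control bioB read 10.87 to 11.10 in wild type and 10.27 to 10.48 in knockout motoneurons. Oligodendrocyte markers were lower in knockout for 6 of 6 genes (median -0.28) and endothelial markers for 4 of 4 (median -0.38), beside 8613 of all 18193 genes. Of the endothelial markers, 3 lay below the array median in motoneurons of either genotype. Astrocyte markers were lower for 4 of 7 (median -0.23), and 3 of them, all lower, had an unadjusted p under 0.05, or 42.9% beside 20.8% of all genes. The medians of the remaining lists were -0.15 for motoneuron, -0.034 for fibroblast and -0.016 for microglia and macrophage markers. They were 0.053 for interneuron, 0.095 for skeletal muscle and 0.12 for Schwann cell markers. No marker of these lists passed. The part of RNA quality, amplification or other cell types in the values of the 38 genes was not tested.

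**Figure D5:**
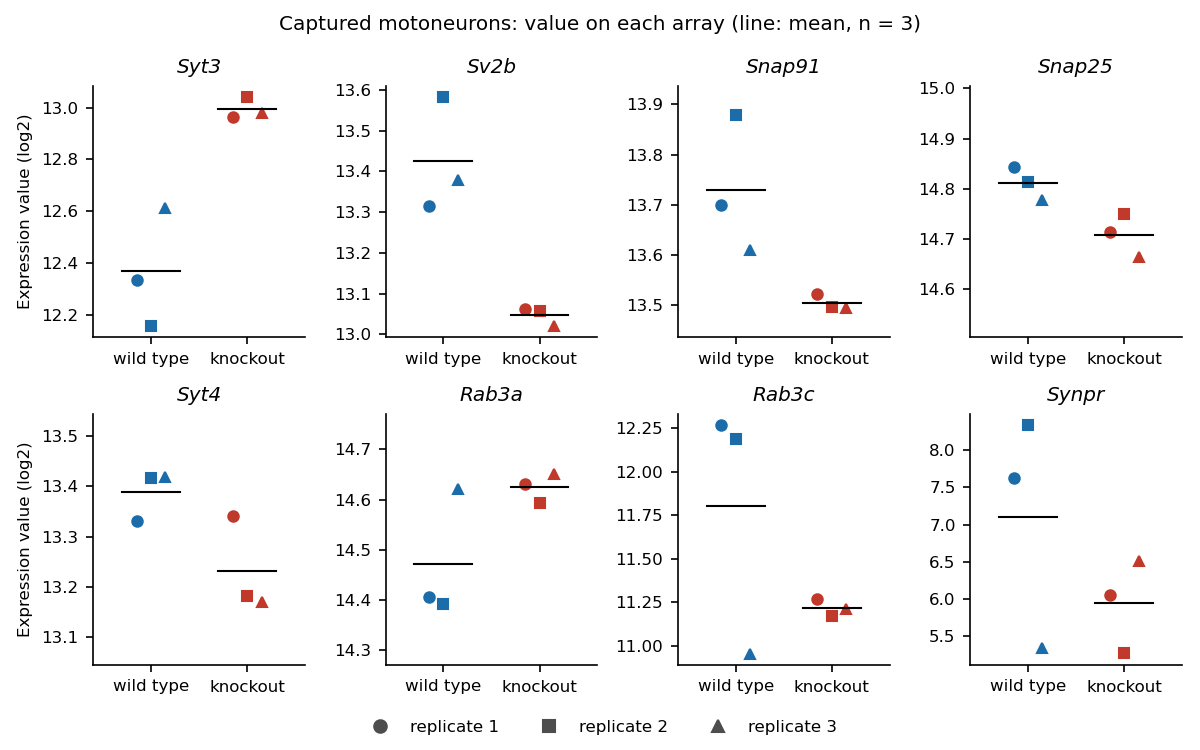
Values of 8 genes on each motoneuron array (log2, each panel on its own axis, which does not start at 0), with wild type in blue, knockout in red, symbols for the replicate number and a line at the mean of 3 arrays. For Syt3, Sv2b, Snap91 and Snap25 the groups do not overlap, and for Rab3a, Rab3c and Synpr wild type replicate 3 sits at or near the knockout values.

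In sciatic nerve no gene passed between genotypes either (0% of all genes by limma). At an unadjusted p under 0.05 there were 2 of 38, or 5.26%, beside 2.04% of all genes, and for 3, or 7.89%, the groups did not overlap, beside 6.91%. The median difference was 0.091, with 27 positive and 11 negative, where all genes had -0.0019, and all 8 of the SNARE group were positive, at 0.0067 to 0.38. After centring the median was 0.050, with 24 positive and 14 negative, where all genes had -0.043, and 6 of the 8 SNARE genes were positive. With 1 array left out the median ranged from 0.019 to 0.15. Syn2, synapsin 2, read 9.19, 9.25 and 8.64 in wild type nerve and 9.62, 9.97 and 9.37 in knockout nerve, every knockout array above every wild type array, a difference of 0.62 (SE 0.23, unadjusted p = 0.0289, adjusted p = 0.999956 by limma). All 6 of its probe sets were positive, at 0.081 to 0.62. Sv2c read 5.47, 5.58 and 5.68 in wild type and 4.86, 5.52 and 4.83 in knockout, with 1 knockout array in the wild type range, a difference of -0.50 (SE 0.21, unadjusted p = 0.0474 by limma). Syt11 read 12.30, 12.48 and 12.67 in wild type and 12.72, 12.59 and 12.84 in knockout, a difference of 0.23. Rab3a read 12.13, 11.91 and 12.21 and then 12.34, 12.14 and 12.39, a difference of 0.21. In both the groups overlapped. Unc13a read 6.71, 6.76 and 6.86 in wild type and 7.02, 6.95 and 7.03 in knockout, without overlap, a difference of 0.22. Unc13c read 10.19, 10.08 and 10.16 and then 9.70, 9.58 and 10.28, with overlap, a difference of -0.29. Each of these had an adjusted p of 0.999956 by limma. The bioB control read 11.15 to 11.47 in wild type and 10.17 to 10.31 in knockout nerve, the skeletal muscle list 7.82 to 14.04 and 10.09 to 11.51, and the interneuron list 4.70 to 4.87 and 4.87 to 5.94. Their part in these values was not tested.

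For none of the 38 genes did the effect of genotype pass as different between tissues (0% of all genes called by limma in the interaction over 12 arrays), and 1 had an unadjusted p under 0.05, beside 9.07% of all genes. That was Syn2, whose effect was -0.061 in motoneurons and 0.62 in nerve, a difference of -0.69 (SE 0.24, unadjusted p = 0.0136, adjusted p = 0.621 by limma). Sv2c followed, with 0.38 in motoneurons and -0.50 in nerve and a difference of 0.88 (adjusted p = 0.665 by limma). For Syt3 the effects were 0.63 and 0.14, 0.48 apart (adjusted p = 0.677 by limma), and for Syt11 they were 0.021 and 0.23, -0.21 apart (adjusted p = 0.709 by limma).

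The genes also differed in how far replicates spread. The median SD within groups was 0.098 in motoneurons, beside 0.209 for all genes, and 0.249 in nerve, beside 0.185. In motoneurons the spread followed the level. The 19 genes with a mean above 13 there, such as Snap25, Cplx1 and Syp, had a median SD of 0.056, close to the 0.068 of all 1266 such genes, and the other 19 had 0.343, where genes at or below that level had 0.221. The highest value on any motoneuron array was 15.22, and whether signals near it are compressed was not tested. The widest spreads in motoneurons were those of Synpr at 1.20, Cplx2 at 0.81, Unc13b at 0.79, Stx1a at 0.66 and Syt1 at 0.58. Syt1 read 8.54, 8.47 and 8.34 in wild type and 8.70, 7.27 and 8.64 in knockout motoneurons, and Stx1a 6.23, 6.61 and 6.08 and then 6.35, 7.91 and 6.39, so in each 1 array, knockout replicate 2, stood apart. That array was the motoneuron array with low Xist and, after wild type replicate 3, the lowest interneuron values, whose part in these values was not tested.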

How the data were processed

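Log2 expression values per probe set, deposited by the authors, came from Affymetrix Expression Console 1.1, per the submitters' processing notes. How probes were summarized and background corrected was not given in the sources used here. Per the labels, RNA was extracted with a different column kit for each tissue, and 20 ng was amplified and labelled with biotin. Of 45101 probe sets, 64 controls were left out and 45037 tested. The platform annotation gave 34945 of them 1 symbol, 932 several and 9160 none. For a gene with several, the probe set of highest mean value was taken.

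Under R 4.3.3, limma 3.58.1 (lmFit, then eBayes with trend) was run over all tested probe sets, with 3 arrays per group, two-sided p-values, Benjamini-Hochberg adjustment and a threshold of 0.05. The genotype was compared in each tissue and as an interaction, and the tissues within each genotype. The scripts were tested on simulated data. No arrays held the same values.

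Named genes were the 6 smallest p in each genotype comparison, 4 in the interaction, and in the wild type tissue difference the 8 largest and all negative ones. The members, lists and this rule were chosen with earlier results of these data known. Genes singled out beyond the rule were chosen after their values were seen. Same-numbered samples were not treated as pairs, since not every correlation of their deviations was above 0.1 (-0.079 to 0.305). Promoters are from RefSeq (GRCm38.p6). Plots used Python 3.11.15 and matplotlib 3.10.9.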

Additional observations from a re-analysis of the deposited data

How the results depend on the processing

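The number of genes called between genotypes stayed at 0 in nerve and in the interaction under all alternatives run. In motoneurons it was 4 with array weights and 0 to 6 with 1 array left out, and 0 under the others. With the replicate number as a block it was 0, and the block ended only the call of Unc13c in wild type (adjusted p = 0.0685 by limma). That call also ended with all 12 arrays in 1 fit (0.119) and without wild type nerve replicate 1 or 3 or wild type motoneuron replicate 1 or 2 (0.0502 to 0.0841). The median tissue difference in wild type was 5.05 after centring, 4.20 after quantile normalization and 2.75 with probe sets averaged per gene. In knockout it was 4.94, 4.16 and 2.81, with 3.43 among brighter probe sets, 3.24 with array weights and 3.09 to 3.31 with 1 array left out. Directions turned after centring and quantile normalization for Syt5 (wild type 0.71 and 0.79, knockout 0.99 and 1.04), Cplx2 (1.18 and 0.31, 1.57 and 0.61) and Unc13c (1.35 and 0.63, 1.77 and 1.08). Vamp2 turned in wild type after centring, to 0.13, and lost its call in knockout, at -0.16. Unc13c in knockout was 0.13 with array weights and -0.20 to 0.26 with 1 array left out, and Cplx2 in knockout was -0.48 to 0.19. Rab3a in motoneurons was -0.0045 with the mean of its probe sets. Apart from the effects of scaling, the cause of these shifts was not tested. With 3 arrays per group, small differences can be missed.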

Other observations

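SNARE and exocytosis genes that serve secretion in many cell types, listed apart from the neuronal genes above, had balances that depended on the scaling. Of 22, all measured, 17 were lower in wild type motoneurons and 2 higher as deposited (median -1.80), where 63.7% of all genes were lower and 17.7% higher. After centring 8 were lower and 9 higher (median -0.037), beside 20% and 61.2% of all genes, and after quantile normalization 12 and 5 (median -0.47), beside 30.6% and 43.1%. Vamp8, a SNARE of endosomes and secretory granules, differed by -6.37 (SE 0.26), Vamp5 by -4.98 and Sytl4, a Rab27 effector, by -4.35, and each stayed negative with both other scalings. Snap23, the widely expressed relative of Snap25, differed by -4.21 where Snap25 differed by 5.32, and Stx2 by -4.33. The higher ones were Sytl2, at 1.65, and Vamp7, at 1.04.

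Between genotypes in motoneurons none of the 22 passed and 5 had an unadjusted p under 0.05, or 22.7% beside 20.8% of all genes, a share near the background. The smallest p were those of Stx8 at 0.33 (adjusted p = 0.108 by limma), Vamp7 at -0.84 (adjusted p = 0.120 by limma) and Stx6 at -0.47 (adjusted p = 0.143 by limma). Of the 51 other presynaptic genes none passed and 11 had such a p, or 21.6%, also near the 20.8% of all genes. The smallest belonged to Ap2a1, a clathrin adaptor subunit, at 0.33 (adjusted p = 0.118 by limma), to Atp6v0a1, a proton pump subunit, at 0.20 (adjusted p = 0.136 by limma) and to Pip5k1c, a lipid kinase of endocytosis, at 0.38 (adjusted p = 0.141 by limma).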
